A study of Parasteatoda tepidariorum with 75 samples.

Results

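Pt-lab-A (gene model aug3.g7954) and Pt-Scr-A (aug3.g15606) are 2 Hox genes of the spider Parasteatoda tepidariorum. They were taken by their identifiers from a table of 27990 gene models counted in 68 RNA-seq libraries of whole embryos. The embryos were laid by 13 females, and each female gave an untreated egg sac before injection and 1 or more later egg sacs after parental RNA interference (pRNAi), in which the mother is injected with double-stranded RNA and her offspring are examined. There were 42 pRNAi and 26 untreated libraries. Pt-hh pRNAi (2 females, 8 libraries with 4 at each stage) and Pt-ptc pRNAi (3 females, 12 libraries with 6 at each stage) were sampled early in stage 3 and late in stage 5. Pt-msx1 pRNAi (3 females, 3 libraries at each stage) was sampled late in stage 5 and early in stage 6. In pRNAi against gfp, a foreign sequence used as the injection control, females 1 to 3 gave 6 libraries at early stage 3 and 6 at late stage 5, and females 4 and 5 gave 2 at late stage 5 and 2 at early stage 6. Every experiment had the untreated egg sacs of its own females, 1 library for each female and stage. In all experiments the untreated egg sac was the earlier one, so that injection and the age of the female cannot be told apart within a female. A library pooled embryos of 1 egg sac, and 2 egg sacs of 1 mother are not independent females.

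Hox genes encode homeodomain transcription factors that give segments their identity along the anterior-posterior axis, and they commonly lie in clusters in an order that follows their domains along the body. In arthropods labial (lab) is among the genes of the anterior end and Sex combs reduced (Scr) acts behind it, in the region of the gnathal segments in insects. Hedgehog, the secreted ligand encoded by hh, binds the receptor Patched, and loss of Patched releases the pathway, so that knockdown of hh and of ptc are opposite manipulations of 1 pathway. msx1 encodes a homeodomain transcription factor. In the spider embryo stage 3 precedes a formed germ disc, stage 5 is the disc, and stage 6 is the change to a germ band.

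On assembly Ptep_1.0 Pt-lab-A spans bases 230626 to 269136 of Scaffold 854 on the plus strand, and is described in the deposited annotation as homeobox protein Hox-A1-like. The neighbouring model aug3.g7953, bases 18306 to 97783 of that scaffold, is described as proboscipedia, another anterior Hox gene. Pt-Scr-A spans bases 1228865 to 1240808 of Scaffold 48, also on the plus strand, and is described as homeobox protein Hox-A5-like. Scaffold 48 also carries models described as abdominal-A, Ultrabithorax, Antennapedia and, with the RefSeq synonym dfd, Deformed. The count of models overlapping either gene was 0.

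Library totals were 5961730 to 16400327 counts with a median of 9854679. Levels of a gene in different libraries are given in CPM, its counts relative to the library total after scaling by the trimmed mean of M values (TMM). A count of 3 corresponded to 0.183 to 0.503 CPM before scaling. Differences are log2 fold changes with standard errors (SE) from edgeR's quasi-likelihood test, in which each female was a block, and p-values were adjusted by the Benjamini-Hochberg method over all models tested, with a threshold of 0.01. In whole embryos fewer cells of a type and less RNA per cell cannot be told apart. A pair of libraries stood apart before any result was read. The early stage 6 libraries labelled gfp pRNAi female 5 and Pt-msx1 pRNAi female 1 held identical counts in all 27990 models, with a total of 10105237, and which female they came from could not be determined. For Pt-lab-A and Pt-Scr-A, the main fits of Pt-msx1 pRNAi that rest on them are given with and without them. Other values at early stage 6, such as counts of libraries, sums and group means, include them unless stated.

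The targeted genes differed in how far they checked the labels. In Pt-hh pRNAi Pt-hh was at 2.30 to 3.32 CPM at late stage 5, against 33.6 to 70.8 CPM in the untreated egg sacs. In Pt-ptc pRNAi Pt-ptc was at 41.7 to 75.4 CPM at early stage 3, against 72.5 to 165.6 CPM untreated. At late stage 5 it was at 501.8 to 704.1 CPM in Pt-ptc pRNAi, against 409.2 to 554.1 CPM untreated, and so was not lower there. In the libraries labelled Pt-msx1 pRNAi Pt-msx1 was at 83.0 to 117.2 CPM at late stage 5, against 78.7 to 133.2 CPM untreated. At early stage 6 it was at 98.1 to 200.8 CPM in the libraries labelled Pt-msx1 pRNAi, against 124.6 to 165.9 CPM untreated. The counts of the targeted gene therefore do not check the Pt-msx1 label at either stage, nor the Pt-ptc label at late stage 5. Germ disc markers were present in untreated embryos at late stage 5, where the summed level of 4 rim and periphery genes was 460.1 to 968.2 CPM.

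The first question was when each gene is expressed in untreated embryos. Pt-lab-A transcript was already abundant at early stage 3 and stayed near that level at late stage 5, whereas Pt-Scr-A was close to the counting floor at early stage 3 and was higher at each later stage. Untreated Pt-lab-A was at 91.8, 128.8 and 264.6 CPM at early stage 3 (lowest, median and highest of 8 females). It was at 107.8, 154.0 and 230.0 CPM at late stage 5 (13 females) and at 71.7, 101.7 and 127.2 CPM at early stage 6 (5 females). The late stage 5 range lay within the early stage 3 range, and the early stage 6 range overlapped both. Late stage 5 over early stage 3 was 0.17 (SE 0.16, adjusted p = 0.337, edgeR), in a comparison where 65.8% of models were called. Within an egg sac Pt-lab-A was higher at late stage 5 in 6 of 8 females, with ratios of 0.599 to 1.80. Between late stage 5 and early stage 6 it was lower in 5 of 5 females, with ratios of 0.452 to 0.754. The fitted value of -0.61 (SE 0.12) had an adjusted p of 0.0102 by edgeR, just short of the threshold, where 2.25% of models were called.

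**Figure D1:**
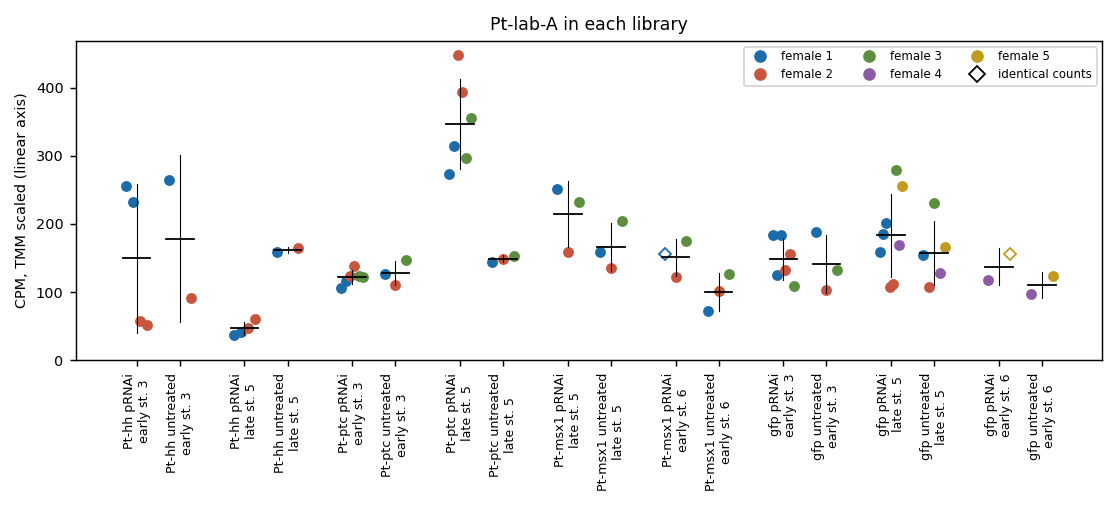
Pt-lab-A in each library in CPM on a linear axis, with pRNAi left of untreated for each experiment and stage; points are libraries coloured by female, horizontal lines are means, vertical lines are SDs, and open diamonds are the libraries with identical counts. The 4 Pt-hh pRNAi libraries at late stage 5 sit between 36.7 and 60.1 CPM, below all untreated libraries of that stage, and the 6 Pt-ptc pRNAi libraries sit between 272.7 and 448.0 CPM.

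Untreated Pt-Scr-A was at 0.267, 0.729 and 2.45 CPM at early stage 3 (lowest, median and highest of 8 females), which came from 2 to 26 counts per library. It was at 0.203, 1.45 and 17.1 CPM at late stage 5 (13 females) and at 3.23, 7.02 and 10.5 CPM at early stage 6 (5 females). Each stage overlapped the next across females, but every egg sac moved the same way. Pt-Scr-A was higher at late stage 5 than at early stage 3 in 8 of 8 untreated egg sacs, with ratios of 1.96 to 11.6. It was higher at early stage 6 than at late stage 5 in 5 of 5, with ratios of 2.97 to 26.0. The fitted rises were 2.17 (SE 0.32, adjusted p = 3.06e-05, edgeR) and 2.78 (SE 0.27, adjusted p = 1.18e-04, edgeR). Without the block the second value stayed at 2.76, with an adjusted p of 0.0397 by edgeR that missed the threshold. With no term for the female and the untreated libraries of all other females added, the first value was 1.92 (adjusted p = 0.0129, edgeR) and the second 0.88 (adjusted p = 0.646, edgeR), and neither passed.

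The spread of Pt-Scr-A at late stage 5 followed sets of females. Late stage 5 embryos of gfp females 1 to 3 and the Pt-hh females had 3.04, 7.77 and 17.1 CPM without treatment (lowest, median and highest of 5). Those of gfp females 4 and 5, the Pt-ptc females and the Pt-msx1 females had 0.203, 1.06 and 1.51 CPM (8 females). The sets did not overlap, and their medians differed 7.33-fold. They were set side by side after their values were seen, and 3.53% of 11524 models with a mean of at least 1 CPM did not overlap between them either. Pt-kru-1 and Pt-asl-H, genes of the moving germ band stripes, behaved alike, with ratios of medians of 11.3 and 7.58 and no overlap. Both are among the models whose levels were most like Pt-Scr-A in these data, as given below. Their sharing of the split is therefore not independent of that likeness. The stripe genes Pt-prd2 and Pt-hairy-D were not compared in this way. Pt-lab-A did not share this split, with a ratio of 1.05 and overlapping sets. A set of 160 models was higher at early stage 6 than at late stage 5. That step was sampled only in gfp females 4 and 5 and the Pt-msx1 females. Their late stage 5 libraries are among those compared here, so that the set is not independent of the comparison. Of the 160 models, 72 had the larger median in gfp females 1 to 3 and the Pt-hh females, as did 44.4% of all models. The median log2 ratio of the set was -0.12 beside -0.05 for all models. A cause of the split was not tested.

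**Figure D2:**
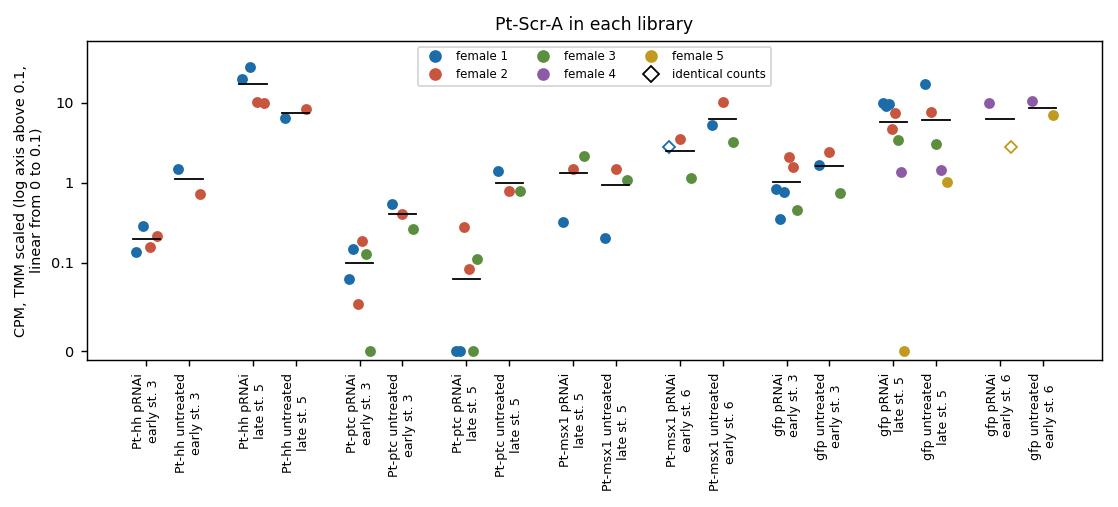
Pt-Scr-A in each library in CPM, on an axis that is logarithmic above 0.1 and linear below it, with pRNAi left of untreated for each experiment and stage; points are libraries coloured by female, lines are means, and open diamonds are the libraries with identical counts. The Pt-hh pRNAi libraries at late stage 5 are the highest group at 9.88 to 28.3 CPM, and the Pt-ptc pRNAi libraries of the same stage lie between 0 and 0.282 CPM.

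The next question was how each gene responded when Pt-hh was knocked down. Pt-lab-A fell at late stage 5 in Pt-hh pRNAi embryos, and Pt-Scr-A was measured at higher levels without reaching the threshold. In Pt-hh pRNAi Pt-lab-A was at 36.7 and 42.1 CPM in the egg sacs of female 1 and at 47.8 and 60.1 CPM in those of female 2, against 158.4 and 165.0 CPM in the untreated egg sacs of females 1 and 2. The groups did not overlap. Here and below such statements describe the libraries only, and the share of all models that did the same is not given. The log2 fold change was -1.80 (SE 0.13, adjusted p = 1.07e-05, edgeR), where 3.55% of models were called. It was lower in 4 of 4 libraries.

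Pt-Scr-A had 20.01 and 28.3 CPM in the Pt-hh pRNAi egg sacs of female 1, against 6.43 CPM in that female's untreated egg sac. Female 2 had 10.4 and 9.88 CPM in Pt-hh pRNAi, against 8.32 CPM untreated. All 4 pRNAi libraries were above both untreated ones, and those of female 1 were farther from their own control. The log2 fold change was 1.06 (SE 0.32, adjusted p = 0.0730, edgeR). Without female 2 it was 1.93 and without female 1 it was 0.27, so that 1 female decided the size. Each of these fits holds 1 mother, so that its p-value would not measure the spread between females. Summed over libraries there were 448 counts in pRNAi and 102 in untreated. With each sum divided by the total counts of its libraries, the ratio was 2.12 (95% interval 1.70 to 2.65). Such intervals cover counting error only.

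At early stage 3 Pt-hh pRNAi embryos had little Pt-Scr-A. The 4 pRNAi libraries had 1, 3, 1 and 2 counts (0.136 to 0.287 CPM), against 12 and 4 counts (1.48 and 0.718 CPM) in the untreated libraries. The groups did not overlap. The ratio of the sums, each divided by its library totals, was 0.193 (95% interval 0.067 to 0.496). The fit gave -2.34 (SE 0.72, adjusted p = 0.126, edgeR), where 0.34% of models were called. Pt-lab-A depended on the mother at this stage. It was at 256.1 and 232.0 CPM in Pt-hh pRNAi of female 1, against 264.6 CPM untreated, and at 57.7 and 52.3 CPM in Pt-hh pRNAi of female 2, against 91.8 CPM untreated. All 4 pRNAi libraries were below their own control, by -0.43 on the log2 scale in the fit (SE 0.16, adjusted p = 0.210, edgeR). Without female 1 the value was -0.78, which comes from the egg sacs of female 2 alone.

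Pt-ptc pRNAi addressed the opposite manipulation of the pathway. Here Pt-lab-A rose at late stage 5 and Pt-Scr-A was close to 0. Pt-lab-A was at 272.7 and 314.3 CPM in the Pt-ptc pRNAi egg sacs of female 1, 448.0 and 393.3 CPM in those of female 2 and 296.7 and 355.3 CPM in those of female 3. The untreated egg sacs of females 1, 2 and 3 had 143.7, 149.1 and 153.5 CPM. Every pRNAi library was above every untreated one, and the 3 untreated values lay close together. The log2 fold change was 1.21 (SE 0.12, adjusted p = 3.06e-05, edgeR), where 1.01% of models were called. Pt-ptc itself was not lower in these libraries, as given above.

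Pt-Scr-A had 0 and 0 counts in the Pt-ptc pRNAi egg sacs of female 1, 4 and 1 in those of female 2 and 0 and 1 in those of female 3. Untreated females 1, 2 and 3 had 15, 9 and 9 counts (1.42, 0.798 and 0.8004 CPM). The groups did not overlap, although the untreated level was itself low. The sums were 6 counts in pRNAi and 33 in untreated. Their ratio, with each divided by its library totals, was 0.088 (95% interval 0.030 to 0.212). The fitted change was -3.31 (SE 0.67) with an adjusted p of 0.0184 by edgeR, which missed the threshold. It passed with no filter on low counts (-3.32, adjusted p = 3.34e-05, edgeR) and by the likelihood ratio test of edgeR (-3.33, adjusted p = 1.92e-06). Of 10 alternative settings only these 2 passed. Leaving out 1 female gave adjusted p-values of 0.0204 to 0.117 by edgeR.

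At early stage 3 Pt-lab-A was at 106.6, 122.8 and 138.3 CPM in Pt-ptc pRNAi (lowest, median and highest of 6), against 125.9, 110.8 and 146.9 CPM in untreated females 1, 2 and 3. The groups overlapped and the fitted change was -0.06 (SE 0.11, adjusted p = 0.818, edgeR), where 0.134% of models were called. Pt-Scr-A had 0 to 2 counts in each Pt-ptc pRNAi library, against 5, 5 and 2 in the untreated ones, and was not tested because no library reached 1 CPM. The sums were 7 counts in pRNAi and 12 in untreated. Their ratio, with each divided by its library totals, was 0.238 (95% interval 0.080 to 0.657).

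The responses were then set against each other in 1 fit for each pair of experiments, with gfp females 1 to 3 as the gfp group. For Pt-lab-A at late stage 5, the Pt-hh response differed from the gfp response by -1.97 (SE 0.17, adjusted p = 6.60e-07, edgeR), where 2.52% of models were called. The Pt-ptc response differed from the gfp response by 1.02 (SE 0.15, adjusted p = 5.47e-04, edgeR), where 0.365% were called. Without gfp female 2 the difference was 0.96 (adjusted p = 0.0118, edgeR). With gfp females 4 and 5 in place of 1 to 3, a setting chosen after seeing the data, it was 0.65 (SE 0.20, adjusted p = 0.300, edgeR) and the call was lost, and with all 5 gfp females it was 0.90 (SE 0.15, adjusted p = 1.55e-03, edgeR). The Pt-hh difference kept its call in both settings, at -2.36 and -2.09. The Pt-ptc response exceeded the Pt-hh response by 3.00 (SE 0.18, adjusted p = 3.69e-09, edgeR), where 2.55% were called. Pt-lab-A was thus above its own control in 6 of 6 Pt-ptc pRNAi libraries and in 0 of 4 Pt-hh pRNAi libraries.

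Pt-Scr-A ran in the opposite direction. The Pt-ptc response was below the Pt-hh response by -4.32 on the log2 scale (SE 0.77, adjusted p = 1.88e-03, edgeR). This call was lost without Pt-hh female 1 (adjusted p = 0.0111), Pt-ptc female 1 (adjusted p = 0.0283) or Pt-ptc female 3 (adjusted p = 0.0128) by edgeR, with values of -5.87 to -3.51 over the females left out. Set against gfp, the Pt-hh response was 1.55 (SE 0.39, adjusted p = 0.0227, edgeR) and the Pt-ptc response -2.81 (SE 0.64, adjusted p = 0.0449, edgeR). Both missed the threshold, and both passed it in DESeq2 (1.504 with adjusted p = 7.16e-03, and -3.01 with adjusted p = 7.48e-03). With gfp females 4 and 5 in place of 1 to 3 they were 1.97 (adjusted p = 0.329) and -2.27 (adjusted p = 0.681) by edgeR. These experiments were done on different sets of females, whose untreated Pt-Scr-A at late stage 5 differed as given above, so that the fold changes start from different levels.

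**Figure D3:**
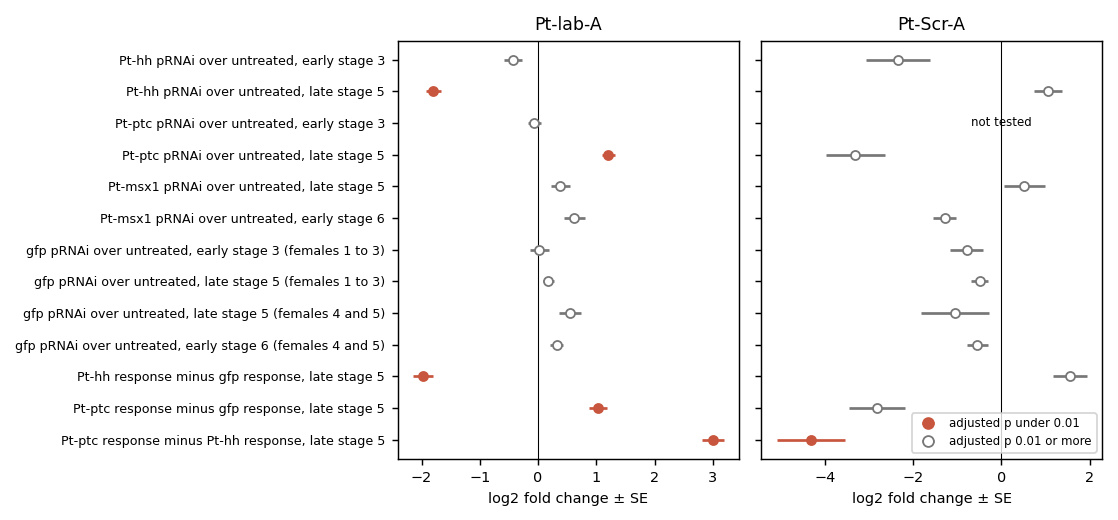
Log2 fold changes of Pt-lab-A (left) and Pt-Scr-A (right) with SE bars, pRNAi over untreated for each experiment and stage and then the differences between responses; filled points had an adjusted p under 0.01. Pt-lab-A was filled for Pt-hh (-1.80) and Pt-ptc (1.21) at late stage 5 and for the 3 differences between responses, and Pt-Scr-A only for the difference between Pt-ptc and Pt-hh (-4.32).

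Whether the responses changed with stage was tested by the interaction of stage and pRNAi. For Pt-lab-A the Pt-ptc response at late stage 5 exceeded that at early stage 3 by 1.27 (SE 0.16, adjusted p = 3.19e-03, edgeR), where 0.0918% of models were called. Leaving out any of the 3 Pt-ptc females lost the call, with adjusted p-values of 0.0158 to 0.133 and values of 1.21 to 1.30. The corresponding Pt-hh difference was -1.34 (SE 0.79, adjusted p = 0.670, edgeR), where 0.128% were called. From the egg sacs of Pt-hh female 1 alone it was -1.88. For Pt-Scr-A the Pt-hh difference was 3.65 (SE 0.66, adjusted p = 0.0320, edgeR), the gene being low in Pt-hh pRNAi at early stage 3 and high at late stage 5. The Pt-ptc difference was -1.39 (SE 1.17, adjusted p = 0.869, edgeR).

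The course of each gene inside the pRNAi egg sacs gave the same values in another order. Pt-Scr-A was higher at late stage 5 than at early stage 3 in 4 of 4 Pt-hh pRNAi egg sacs, with CPM ratios of 46.4 to 147 that rest on 1 to 3 counts at the earlier stage. The fit gave 6.34 (SE 0.33, adjusted p = 2.35e-08, edgeR), where 59% of models were called. In gfp pRNAi it was higher in 6 of 6 egg sacs, by 2.81 (SE 0.38, adjusted p = 2.09e-05, edgeR), where 69.6% were called. In Pt-ptc pRNAi it was higher in 2 and lower in 4 of 6 egg sacs and was not tested, all libraries having 0 to 4 counts. Pt-lab-A was higher at late stage 5 in 6 of 6 Pt-ptc pRNAi egg sacs, by 1.48 (SE 0.09, adjusted p = 6.50e-08, edgeR), where 72.2% of models were called. In Pt-hh pRNAi it was higher in 1 of 4 egg sacs, and the fitted value of -1.29 (SE 0.45, adjusted p = 0.0237, edgeR) joined unlike females. Without female 2 it was -2.60 and without female 1 it was 0.003. In gfp pRNAi Pt-lab-A was higher in 3 of 6 egg sacs, by 0.12 (adjusted p = 0.597, edgeR).

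**Figure D4:**
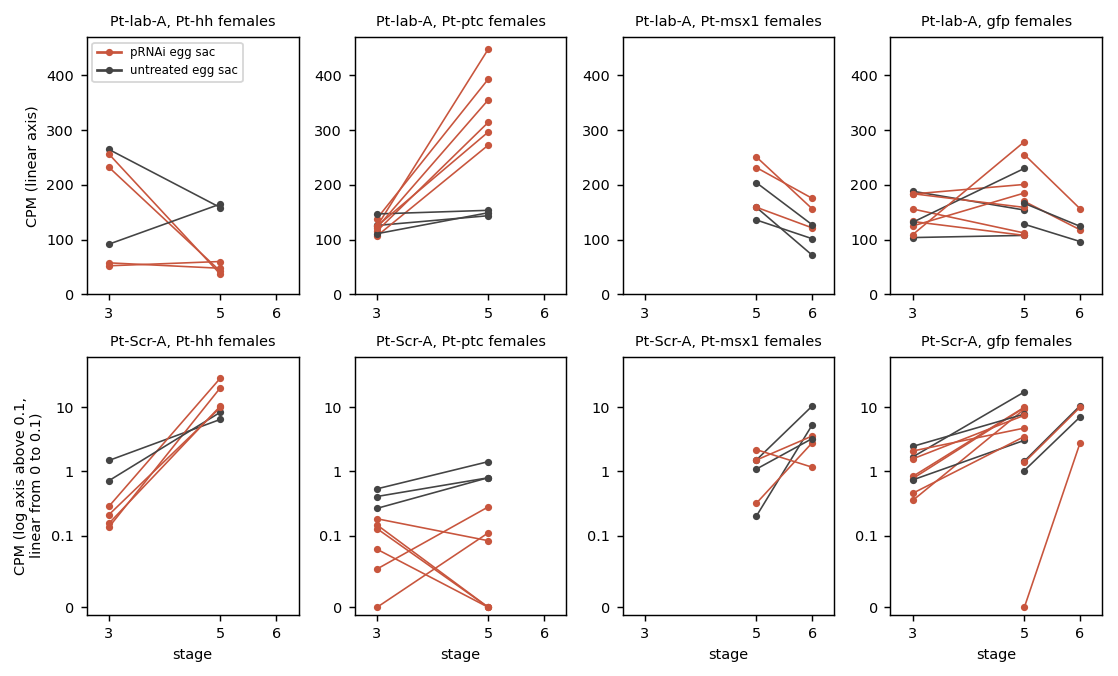
Levels in CPM by stage for Pt-lab-A (upper row, linear axis) and Pt-Scr-A (lower row, logarithmic above 0.1 and linear below), with a column for each experiment; a line joins libraries of 1 egg sac, red for pRNAi and dark for untreated. Pt-lab-A lines climb in all 6 Pt-ptc pRNAi egg sacs, and Pt-Scr-A lines climb in all 4 Pt-hh pRNAi egg sacs.

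In the libraries labelled Pt-msx1 pRNAi neither gene was called, and 0% of models were called in either comparison with untreated. At an unadjusted p under 0.05 by edgeR there were 696 of 12440 models at late stage 5 and 775 of 12446 at early stage 6. With no effect at all, a share near 0.05 of the models tested would pass that limit. DESeq2 called 14 and 4. At early stage 6 Pt-Scr-A was at 2.78, 3.54 and 1.16 CPM in the libraries labelled Pt-msx1 pRNAi of females 1, 2 and 3, against 5.26, 10.3 and 3.23 CPM in their untreated libraries. It was lower in 3 of 3 females, while the groups overlapped across females. The fold change was -1.28 (SE 0.26, adjusted p = 0.738, edgeR). Without the libraries with identical counts it was -1.501 (SE 0.30, adjusted p = 0.0842, edgeR). With the libraries with identical counts included, the sums were 74 counts in pRNAi and 197 in untreated. Their ratio, with each divided by its library totals, was 0.393 (95% interval 0.297 to 0.516). Set against the gfp response the difference was -0.68 (SE 0.45, adjusted p = 1.0, edgeR), where 0% were called. Without the libraries with identical counts it was -1.43 (SE 0.42, adjusted p = 0.715, edgeR), a fit that holds gfp female 4 alone in the gfp group and assumes that it varies like the Pt-msx1 females.

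A list was made of the models that were higher at early stage 6 than at late stage 5 in untreated gfp females 4 and 5. Its median went the same way as Pt-Scr-A at early stage 6 only. This list of 177 models had a median log2 fold change of -0.37 in the libraries labelled Pt-msx1 pRNAi at early stage 6, and -0.28 without the libraries with identical counts, with all models near 0. At late stage 5 it was -0.25, while Pt-Scr-A was above its own control in 2 of 3 libraries and below it in 1. The part of the list in the Pt-Scr-A value was not tested.

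Pt-Scr-A at late stage 5 was at 0.321, 1.502 and 2.18 CPM in the libraries labelled Pt-msx1 pRNAi, against 0.203, 1.51 and 1.09 CPM untreated in females 1, 2 and 3. The groups overlapped, and the change was 0.52 (SE 0.46, adjusted p = 0.969, edgeR). Pt-lab-A was at 250.9, 159.1 and 231.5 CPM in the libraries labelled Pt-msx1 pRNAi at late stage 5, against 158.9, 135.9 and 203.9 CPM untreated. At early stage 6 it was at 156.3, 121.5 and 175.4 CPM, against 71.7, 101.7 and 127.2 CPM untreated. Every one of these 6 libraries was above its own control, with changes of 0.38 (SE 0.16, adjusted p = 0.876, edgeR) at late stage 5 and 0.63 (SE 0.19, adjusted p = 0.738, edgeR) at early stage 6. Without the libraries with identical counts the early stage 6 value was 0.37 (SE 0.11, adjusted p = 0.270, edgeR). The difference from the gfp response was 0.28 (SE 0.26, adjusted p = 1.0, edgeR) at early stage 6, and 0.07 without them, again against gfp female 4 alone. At late stage 5 the differences from the gfp response were -0.17 for Pt-lab-A and 1.60 for Pt-Scr-A (adjusted p = 1.0 each, edgeR), where 0% were called. The change in response between the stages was 0.25 for Pt-lab-A and -1.84 (SE 0.91) for Pt-Scr-A, both with an adjusted p of 1.0 by edgeR, where 0% were called. Without the libraries with identical counts they were 0.36 and -2.48.

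The gfp pRNAi libraries show how far either gene moved with injection and the later egg sac alone. Neither gene was called. Pt-Scr-A was below the untreated library of the same female and stage in 15 of 16 gfp pRNAi libraries, the exception being female 3 at late stage 5. Its log2 fold change was -0.78 (SE 0.37, adjusted p = 0.214, edgeR) at early stage 3, where 1.26% of models were called, and -0.49 (SE 0.19, adjusted p = 0.312, edgeR) at late stage 5 in females 1 to 3, where 0.137% were called. In females 4 and 5 it was -1.05 (SE 0.77, adjusted p = 0.765, edgeR) at late stage 5, where 0.231% were called, and -0.54 (SE 0.23, adjusted p = 0.261, edgeR) at early stage 6, where 1.71% were called. Single values showed the spread. In female 1 Pt-Scr-A was at 9.93, 9.25 and 9.75 CPM in gfp pRNAi at late stage 5, against 17.1 CPM untreated. In female 5 it had 0 counts in gfp pRNAi at late stage 5, against 11 untreated.

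Pt-lab-A in gfp pRNAi was above its own control in 11 of 16 libraries and below it in 4. At late stage 5 it was above in 7 of 8, for example at 278.6 CPM in gfp pRNAi of female 3, against 230.0 CPM untreated, and at 255.2 CPM in female 5, against 166.2 CPM untreated. The fold changes were 0.02 (SE 0.16, adjusted p = 0.951, edgeR) at early stage 3 and 0.18 (SE 0.10, adjusted p = 0.510, edgeR) at late stage 5 in females 1 to 3. In females 4 and 5 they were 0.55 (SE 0.19, adjusted p = 0.308, edgeR) at late stage 5 and 0.32 (SE 0.11, adjusted p = 0.110, edgeR) at early stage 6. Between these stages, gfp pRNAi egg sacs of females 4 and 5 had Pt-Scr-A higher by 3.36 (SE 0.51, adjusted p = 1.44e-07, edgeR), where 1.01% of models were called. DESeq2 gave 3.78 with an adjusted p of 0.0249, which misses the threshold, and the female 5 libraries behind it are the one with 0 counts at late stage 5 and the one with identical counts at early stage 6. In the egg sacs labelled Pt-msx1 pRNAi the same step was 0.96 (SE 0.69, adjusted p = 0.776, edgeR), and 2 of 3 were higher at early stage 6. Without the libraries with identical counts this step was 0.29 (SE 0.49, adjusted p = 0.898, edgeR). The gfp results at early stage 6 could not be fitted without the library labelled female 5. In female 4 alone Pt-Scr-A was at 9.94 CPM in gfp pRNAi, against 10.5 CPM untreated, and Pt-lab-A at 118.0 CPM, against 96.6 CPM untreated.

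Ordered by their means over all 18 groups, Pt-lab-A was highest in Pt-ptc pRNAi at late stage 5 (347 ± 65.6 CPM, SD, n = 6) and lowest in Pt-hh pRNAi at late stage 5 (46.7 ± 10.03 CPM, SD, n = 4). The other 16 groups had means of 100.2 to 213.8 CPM, and neighbours among them differed by less than the larger of their SDs. Pt-Scr-A was highest in Pt-hh pRNAi at late stage 5 (17.1 ± 8.76 CPM, SD, n = 4), followed by the untreated gfp females at early stage 6 (8.75 ± 2.45 CPM, SD, n = 2), a gap within the larger SD. It was lowest in Pt-ptc pRNAi at late stage 5 (0.081 ± 0.111 CPM, SD, n = 6) and at early stage 3 (0.0995 ± 0.068 CPM, SD, n = 6), which did not differ beyond their spread. By group means alone, the 2 genes had their extremes in the same pair of groups, in opposite order. For Pt-Scr-A neither extreme was separated from the next group beyond the spread.

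Levels of different genes were compared per length, as reads scaled to model length and library size (RPKM). Untreated Pt-lab-A had median levels of 23.2, 24.2 and 16.7 RPKM in stages 3, 5 and 6, and Pt-Scr-A had 0.610, 1.28 and 6.33 RPKM. Of all Hox models at late stage 5, Pt-lab-A had the highest median. It was followed by Hox-B4-like aug3.g15608, which RefSeq lists under Deformed, at 18.3 RPKM and Hox-B4a-like aug3.g1787 at 17.8 RPKM. Hox-A5 aug3.g17640 (2.21 RPKM), Hox-C10-like aug3.g15983 (1.70 RPKM) and proboscipedia aug3.g7953 (1.59 RPKM) came next, ahead of Pt-Scr-A. Hox-A1 aug3.g27130 (1.21 RPKM), the hox3-B model aug3.g27124 (1.07 RPKM) and Hox-A9b aug3.g25355 (0.984 RPKM) lay just below it. The Pt-Scr-A median at late stage 5 joined unlike sets of females. It was 6.18 RPKM in gfp females 1 to 3 and the Pt-hh females, and 0.96 RPKM in the others. At early stage 6 Hox-B4a-like (29.3 RPKM) and the Deformed model (17.2 RPKM) had higher medians than Pt-lab-A.

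The list of other Hox models had 20 members by description or RefSeq synonym. In the untreated stages 13 were tested between early stage 3 and late stage 5, with 4 higher and 2 lower, where 31.9% of all models were higher and 33.9% lower, so that these shares were near or below the background. Between late stage 5 and early stage 6, 9 were tested, with 2 higher and 0 lower, where 1.45% of all models were higher and 0.804% lower. Those higher at late stage 5 were Hox-A5 aug3.g17640 (5.00), Hox-B4a-like aug3.g1787 (2.13), proboscipedia aug3.g7953 (2.11) and Hox-A9b aug3.g25355 (1.52). The models that were lower, abdominal-A aug3.g15592 and Abdominal-B aug3.g9048, act at the posterior end in insects and had at most 13 counts in an untreated early stage 3 library and at most 1 at late stage 5. At early stage 6 Hox-B4a-like (0.83) and Hox-A9b (1.09) were higher, as Pt-Scr-A was.

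In Pt-hh pRNAi at late stage 5, 12 of the 20 were tested, with 0 higher and 1 lower, where 2.34% of all models were higher and 1.21% lower. The lower one was Hox-C10-like aug3.g15983, with 0 counts in all 4 pRNAi libraries, against 11 and 11 counts untreated (adjusted p = 5.14e-03, edgeR). Hox-A1 aug3.g27130, described like Pt-lab-A as a Hox-A1 type gene, also had 0 counts in all 4, against 1 and 17 untreated, and an adjusted p of 0.01002 by edgeR that did not pass. In Pt-ptc pRNAi at late stage 5, 8 were tested, with 1 higher and 2 lower, where 0.295% of all models were higher and 0.713% lower. Hox-C10-like was higher at 10.9 to 26.0 CPM, against 4.17 to 8.87 CPM untreated (1.47, adjusted p = 2.39e-04, edgeR). Hox-B4a-like was lower at 0.279 to 1.30 CPM, against 62.3 to 76.1 CPM untreated (-6.77, adjusted p = 7.41e-10, edgeR). Hox-A5 was lower at 0 to 0.301 CPM, against 5.42 to 7.72 CPM untreated (-5.42, adjusted p = 4.94e-06, edgeR).

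Other models named did not pass in those comparisons. In Pt-hh pRNAi Hox-A5 was at 0.92 (adjusted p = 0.0534), Hox-A9b at 0.77 (adjusted p = 0.121), the Deformed model at 0.36 and Hox-B4a-like at -0.16 by edgeR. In Pt-ptc pRNAi the hox3-B model was at -1.88 (adjusted p = 0.0159), Hox-A1 at 0.63 (adjusted p = 0.240), Hox-A9b at -0.41 and the Deformed model at -0.39 by edgeR. With the Pt-ptc response set against the Pt-hh response, 2 of 12 tested models were higher, Hox-C10-like and Hox-A1, and 2 were lower, Hox-A5 (-6.32) and Hox-B4a-like (-6.60), where 0.808% of all models were higher and 1.75% lower. In the comparisons of pRNAi with untreated at early stage 3, and in those of Pt-msx1 and gfp pRNAi, the count of other Hox models called by edgeR was 0, with 8 to 13 tested in each. With the Pt-hh response set against gfp at late stage 5, 2 of 12 were lower and 0 higher, where 107 of 12877 models were lower. With the Pt-ptc response set against gfp, 2 of 9 were lower and 0 higher, where 39 of 12886 models were lower.

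**Figure D5:**
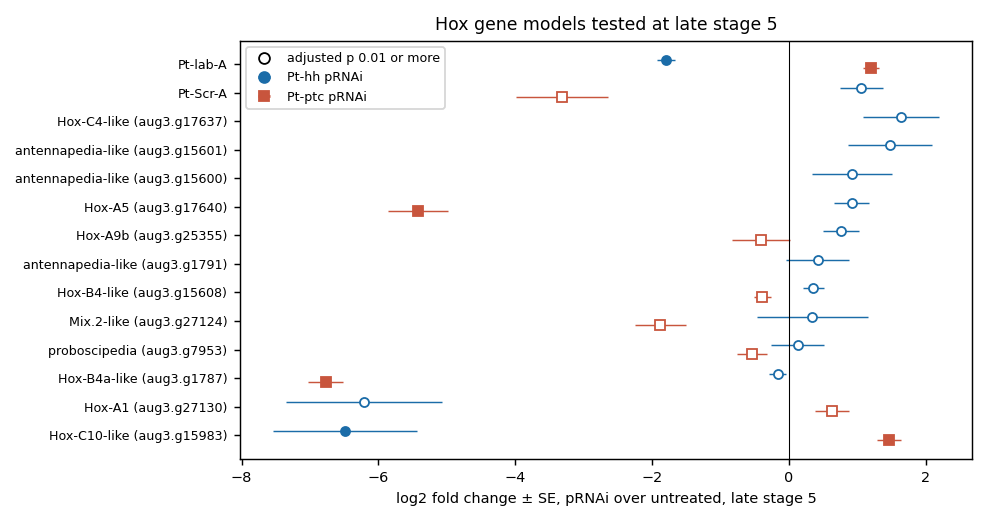
Log2 fold changes with SE bars, pRNAi over untreated at late stage 5, of the Hox models that passed the low-count filter; circles are Pt-hh pRNAi, squares are Pt-ptc pRNAi, and filled symbols had an adjusted p under 0.01. Pt-lab-A and Hox-C10-like have Pt-hh pRNAi left of 0 and Pt-ptc pRNAi right of 0; the fitted Pt-hh values of Hox-C10-like and Hox-A1 come from libraries with 0 counts and set no size.

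Hox proteins bind DNA together with the homeodomain cofactors Extradenticle (Pbx) and Homothorax (Meis), and 8 models of these were listed. The extradenticle-like models aug3.g27747 and aug3.g27748 are taken as pieces of the same gene, so that the list can count it more than once; in Pt-hh pRNAi the second was lower (-1.14) and the first missed the threshold (-1.13, adjusted p = 0.0106, edgeR). In Pt-hh pRNAi at late stage 5, 5 of 8 were lower and 0 higher, against 1.21% of all models lower. The extradenticle-like model aug3.g13538 was at -1.42, Meis2 aug3.g13868 at -1.45, Meis2 aug3.g13867 at -1.24 and Meis1 aug3.g3111 at -0.96, all past the threshold. In Pt-ptc pRNAi 1 of 8 was higher, Meis2 aug3.g13868 (0.71), against 0.295% of all models. With the Pt-ptc response set against the Pt-hh response 6 of 8 were higher, against 0.808% of all models. In untreated embryos 6 of 8 were higher at late stage 5 than at early stage 3, against 31.9% of all models.

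Markers of regions of the germ disc were counted in the same comparisons at late stage 5, where 2.34% of all models were higher and 1.21% lower in Pt-hh pRNAi, and 0.295% higher and 0.713% lower in Pt-ptc pRNAi. Several markers, among them Pt-otd, Pt-opa, Pt-msx1 and Pt-rhomboid, were listed by the authors as responding to Pt-hh and Pt-ptc pRNAi in these same libraries. The clock genes came from their Pt-msx1 experiment. The marker counts are therefore not independent of that choice, and the shares of all models are no like-for-like background. The 4 rim and periphery markers, which include the targeted Pt-hh, were all lower in Pt-hh pRNAi, with a summed level of 48.2 to 53.3 CPM in Pt-hh pRNAi, against 618.3 to 630.2 CPM untreated. Pt-otd, which marks head tissue, was at -6.03 and Pt-BarH1 at -2.70. In Pt-ptc pRNAi 2 of 4 were higher, with a summed level of 1095 to 1583 CPM in Pt-ptc pRNAi, against 626.8 to 734.3 CPM untreated. Pt-opa was at 1.12 and Pt-BarH1 at 1.01. The 3 centre markers, which lie in the future opisthosoma, had 2 higher in Pt-hh pRNAi and 3 lower in Pt-ptc pRNAi, where Pt-msx1 was at -5.95.

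The 4 intermediate markers, which lie in the future thorax, were all lower in Pt-ptc pRNAi, with a summed level of 64.6 to 126.6 CPM in Pt-ptc pRNAi, against 247.3 to 309.6 CPM untreated. In Pt-hh pRNAi 1 of them was higher, Pt-noto1 (0.89), and 1 lower, Pt-rhomboid (-0.82). Of 3 head stripe markers 1 was tested in each, lower in Pt-hh pRNAi and not called in Pt-ptc pRNAi. Of the 4 clock genes 3 were lower in Pt-ptc pRNAi, Pt-kru-1 (-5.54), Pt-prd2 (-3.14) and Pt-asl-H (-2.43), with a summed level of 39.4 to 50.1 CPM in Pt-ptc pRNAi, against 120.2 to 165.4 CPM untreated. In Pt-hh pRNAi edgeR called 0 of the 4, and their values were 0.56 for Pt-prd2 (adjusted p = 0.0452), 0.01 for Pt-kru-1, -0.001 for Pt-asl-H and -0.68 for Pt-hairy-D (adjusted p = 0.173). The summed level of the clock genes was 255.9 to 317.2 CPM in Pt-hh pRNAi, above 195.3 to 235.8 CPM untreated. No marker was called in the Pt-msx1 comparisons. The part of any of these in the Pt-lab-A and Pt-Scr-A values was not tested. Models higher at late stage 5 than at early stage 3 in untreated gfp females 1 to 3 had median log2 fold changes of -0.02 in Pt-hh pRNAi and -0.003 in Pt-ptc pRNAi at late stage 5, beside 0.004 and -0.0008 for all models.

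The models whose levels were most like each gene were taken by Pearson's r of log2(CPM + 1) over 67 libraries, counting the identical libraries once. These libraries share females, stages and treatments, so that r describes them only. For Pt-lab-A they were Pt-BarH1 (r = 0.774), Pt-opa (0.717), inner centromere protein A-like aug3.g5177 (0.684), sprouty-related SPRED2 aug3.g5499 (0.651) and TBX20-like aug3.g11865 (0.632). Over 34 late stage 5 libraries Pt-BarH1 reached 0.927, with dendritic arbor reduction 1 aug3.g15550 (0.893), snail aug3.g417 (0.892), Pt-opa (0.890) and anoctamin-7 aug3.g12544 (0.889) after it. With Pt-Scr-A, Pt-lab-A had r = -0.44 over all libraries and -0.73 at late stage 5.

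For Pt-Scr-A the nearest models were Pt-kru-1 (r = 0.927), ZBTB24 aug3.g17796 (0.920), aug3.g15603 (0.919), sericin 1-like aug3.g16493 (0.897) and aug3.g15599 (0.889). Over the 19 stage 5 and stage 6 libraries of the Pt-msx1 females and gfp females 4 and 5, aug3.g15603 (0.915) and Pt-asl-H (0.904) came first, followed by aug3.g17796 (0.895), notum1 aug3.g9270 (0.886) and EMX1-like aug3.g2295 (0.873). Among these, aug3.g15599 and aug3.g15603 lie on Scaffold 48, as Pt-Scr-A does. Model aug3.g15603 spans bases 971955 to 1004499 on the plus strand, between the Antennapedia models and Pt-Scr-A. Model aug3.g15599 spans bases 593893 to 633970 on the minus strand, opposite to and within the Antennapedia model aug3.g15600 (bases 584792 to 683441).

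Both of these Scaffold 48 models took the untreated course of Pt-Scr-A. They were chosen by r with Pt-Scr-A over the same libraries, so that a like course and like responses follow in part from the choice. Model aug3.g15599 had medians of 0, 2.37 and 11.3 CPM in stages 3, 5 and 6, and aug3.g15603 had 0.062, 0.452 and 3.04 CPM. The rises between late stage 5 and early stage 6 were 2.42 (adjusted p = 4.88e-05, edgeR) for aug3.g15599 and 3.65 (adjusted p = 2.04e-04, edgeR) for aug3.g15603. In Pt-ptc pRNAi at late stage 5 aug3.g15599 was lower, at -3.44 (adjusted p = 1.46e-03, edgeR), and aug3.g15603 had 0 to 1 counts in pRNAi, against 1 to 6 untreated. In Pt-hh pRNAi aug3.g15603 was at 1.81 (adjusted p = 0.0672, edgeR) and aug3.g15599 at 0.53 (adjusted p = 0.397, edgeR). In the libraries labelled Pt-msx1 pRNAi at early stage 6 they were at -1.17 and -1.25 (adjusted p = 0.738 each, edgeR). Models nearer to Pt-Scr-A did not all take this course. The next model, aug3.g15605, had r = 0.421 with Pt-Scr-A, and aug3.g15607 on its other side had r = 0.335.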

How the data were processed

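RNA-seq libraries were stranded. The authors mapped reads with BLAT to Ptep_1.0 and made the deposited counts per aug3 gene model with HTSeq 0.5.4p5. RPKM values were computed and deposited by the authors, and served only to compare genes. Deposited columns of the authors' own comparisons were not used. Names came from the deposited descriptions and from RefSeq synonyms (assembly CAS_Ptep_4.0), whose coordinates were not used. No sequence is printed.

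Models that reached 1 CPM in any library of a comparison were tested with edgeR 4.0.16 (R 4.3.3) by the quasi-likelihood F test with TMM scaling, with the female as a block, or the egg sac where stages were compared within pRNAi egg sacs or crossed with pRNAi. The SE was the log2 fold change divided by the root of F. The female numbers pair libraries because they are 1 animal. Deviations of same-female libraries correlated at 0.542 to 0.765, and at 0.286 to 0.593 in Pt-msx1 at early stage 6. Alternatives were DESeq2 1.42.0, other scaling, the likelihood ratio test, no filter, no block, summing the pRNAi libraries of a female and leaving out females. The 2 genes and all lists were chosen with earlier results of these data known. Named were the targeted genes, the other Hox models that passed the filter, at most 4 cofactors, region markers that a result touched, and the 5 models with the highest r. A Deformed autoregulatory factor caught by the Hox keywords was left out of that list, and aug3.g15605 and aug3.g15607 were named after their values were seen. The 7 stage 7 samples were not analysed here. P-values measure the spread that is left after the block, as labelled. Where the female was the block, this includes the spread between egg sacs of 1 mother, which are not independent females. Scripts were tested on simulated data.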

Additional observations from a re-analysis of the deposited data

Results flagged for a closer look

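The response to pRNAi differed between experiments or stages, by a test of the difference itself, in 5 results. For Pt-lab-A at late stage 5 the Pt-hh response minus the gfp response was -1.97, the Pt-ptc response minus the gfp response was 1.02 (0.65 and no longer past the threshold against gfp females 4 and 5) and the Pt-ptc response minus the Pt-hh response was 3.00, on the log2 scale. For Pt-Scr-A the Pt-ptc response minus the Pt-hh response was -4.32 at late stage 5. The Pt-ptc response of Pt-lab-A at late stage 5 minus that at early stage 3 was 1.27. No explanation of these was tested. Of 14 groups of 4 to 10 libraries examined for an outlying library in either gene, 0 held one.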

How the results depend on the processing

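With gfp females 4 and 5 in place of 1 to 3, added after seeing the data, the Pt-ptc minus gfp difference of Pt-lab-A was 0.65 and did not pass. Pt-lab-A kept its call under all alternatives in Pt-hh pRNAi (-1.98 to -1.62) and in Pt-ptc pRNAi (1.07 to 1.30) at late stage 5. Leaving out 1 female kept the direction and call in 131 comparisons and changed them in 7 that then passed, 7 that no longer passed and 6 that reversed, and other settings kept 252 of the values, with 17 that then passed and 5 that no longer passed. Without the female as a block, Pt-Scr-A at early stage 6 over late stage 5 untreated was 2.76 (adjusted p = 0.0397, edgeR). The replicate block changed no other call of either gene in the comparisons of pRNAi with untreated and between untreated stages, and no fit without it was run for the other comparisons. With all untreated libraries and no female term, Pt-Scr-A at early stage 6 over late stage 5 was 0.88, and late stage 5 over early stage 3 was 1.92 (adjusted p = 0.0129).

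With no low-count filter Pt-Scr-A passed in Pt-hh pRNAi (1.06) and Pt-ptc pRNAi (-3.32) at late stage 5, in the Pt-hh (1.55) and Pt-ptc (-2.81) responses minus gfp, and in the Pt-hh response between stages (3.61). Pt-lab-A then passed at early stage 6 over late stage 5 (-0.61) and in Pt-hh pRNAi egg sacs (-1.30). By the likelihood ratio test the values that passed were, for Pt-Scr-A, -3.33 in Pt-ptc pRNAi, 1.51 and -2.82 against gfp and 3.65 between stages, and, for Pt-lab-A, -0.61 between untreated stages and -1.29 in Pt-hh pRNAi egg sacs. In DESeq2 Pt-Scr-A passed at 1.504 and -3.01 against gfp and 3.69 between stages, Pt-lab-A passed at -0.61 between untreated stages, and Pt-Scr-A in gfp pRNAi egg sacs between late stage 5 and early stage 6 no longer passed (3.78, adjusted p = 0.0249). The cause was not tested.

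Leaving out 1 female gave ranges that crossed the threshold or 0. For Pt-hh pRNAi such a fit holds 1 mother only, whose egg sacs are not independent females. For Pt-lab-A they were -0.78 to -0.10 in Pt-hh pRNAi at early stage 3, -0.21 to 0.03 in Pt-ptc pRNAi at early stage 3 (0.0075 without female 1 and 0.029 without female 3), -0.22 to 0.18 in gfp pRNAi at early stage 3, -0.67 to -0.46 at early stage 6 untreated, 0.89 to 1.12 for Pt-ptc minus gfp, -1.88 to -0.86 and 1.21 to 1.30 for the Pt-hh and Pt-ptc responses between stages, -2.60 to 0.0031 in Pt-hh pRNAi egg sacs and -0.11 to 0.41 in gfp pRNAi egg sacs. For Pt-Scr-A they were 0.27 to 1.93 in Pt-hh pRNAi at late stage 5, 0.77 to 2.43 for Pt-hh minus gfp, -5.87 to -3.51 for Pt-ptc minus Pt-hh, -1.22 to 0.02 for Pt-msx1 minus gfp at early stage 6 (0.015 without gfp female 4) and 2.12 to 4.61 for the Pt-hh response between stages.

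Counts of called models depended on the setting. At late stage 5 they were 435 in Pt-hh pRNAi and 123 in Pt-ptc pRNAi, against 39 and 39 without the block, 783 and 291 by the likelihood ratio test, and 821 and 404 with no filter. With the pRNAi libraries of each female summed they were 121 and 62. Between late stage 5 and early stage 6 untreated there were 286, against 2 without the block. No fit without a female could be had for gfp females 4 and 5 or without the identical library there. Counts of 0 to 4 limit Pt-Scr-A in Pt-ptc pRNAi.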

Other observations

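On Scaffold 48 the model between the Antennapedia models and aug3.g15603, aug3.g15602 (uncharacterized), had medians of 1081, 2.75 and 1.34 CPM in untreated embryos of stages 3, 5 and 6, a course opposite to that of Pt-Scr-A, with r = -0.52 over 67 libraries. It was named after its values were seen.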
